A study of Mus musculus with 36 samples.

Results

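The 210 array probes described here were higher with tamoxifen and doxycycline together than with doxycycline alone in reprogramming mouse fibroblasts, and they were also higher in pluripotent cells than in fibroblasts. They were chosen by a rule on the authors' deposited sample brightness, in log10, for 25030 probes of an array that carries 42006. On day 3 and again on day 6 both arrays with both drugs had to exceed both arrays with doxycycline alone, and the mean of these differences over both days had to be at least 0.15. The day 6 mean with both drugs had to be at least 2.3, and the mean of iPS and ES cells had to exceed that of the untreated primary fibroblasts by at least 0.3. The first demand was met by 2676 probes, the brightness limit left 2077 of them, the pluripotent limit left 897 and the size limit left 210.

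The study measured RNA on 36 arrays of 2 colours, with 18 groups of 2 arrays, each sample in Cy3 against a common Cy5 reference made from pooled mouse cell line RNA and 129 ES cell RNA. The 12 groups named 2ndMEF-KOS-ZERT2 were second-generation mouse embryonic fibroblasts (MEFs) of a C57Bl/6 x 129 hybrid, all from clone #1, with the KOS factors under doxycycline and Zscan4ERT2 under tamoxifen. They were grown in ES medium with LIF for 1, 3 or 6 days with neither drug (Dox-Tmx-), 200 nM tamoxifen (Dox-Tmx+), 1.5 µg/ml doxycycline (Dox+Tmx-) or both (Dox+Tmx+). The other groups were primary Zscan4ERT2 fibroblasts (MEF2 ZERT2) and wild fibroblasts (MEF3), both of an F1 hybrid from V6.5, in MEF medium and labelled Tmx- or Tmx+, then iPS(KOS-ZERT2) cells of clone #2 and v6.5 ES cells. The labels do not say that replicates were separate cultures, so p-values measure the spread between these samples, which may be technical. The protocols of the wild MEFs labelled Tmx+, and of replicate 2 of the Dox-Tmx+ cultures of day 1, name no tamoxifen. All tamoxifen comparisons in the secondary cultures, and the iPS and ES pair, lay within a slide, with the tamoxifen arrays always at the same positions of it. Doxycycline against none lay between slides, and days 1 and 6 also differed in scan day. On a single array 54.9% to 77.1% of probes stood well above background. With 2 arrays per group, precision is set by their number.

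KOS stands for Klf4, Oct4 and Sox2, the transcription factors whose forced expression turns fibroblasts into induced pluripotent stem (iPS) cells. Zscan4 is a zinc finger protein of the early cleavage-stage embryo that also appears in bursts in a few ES cells at a time, where it is known for its part in telomere maintenance and genome stability. In Zscan4ERT2 the protein is joined to a modified oestrogen receptor domain, which keeps it out of the nucleus until tamoxifen is added. Genes of the pluripotency network are silent in fibroblasts and are switched on step by step during reprogramming, epithelial genes early and many core network genes late. The files pair no probe with a gene name, so the members are given by probe identifier and, for those the results turn on, by sequence. Whether the cultures held the cell types of their labels was not checked against marker genes for the same reason.

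Each member is a 60-base oligonucleotide. At most 30 bases of a probe are printed, 5′ to 3′ as on the array. The first 3 are the middle of the members with the largest difference, and are shown to identify them; the fourth is the start of the member that could be placed on the genome.
Z00025969-1: tatctcaccagagagaaaagtggggctatt
Z00029389-1: tagaagtcactatgtagactgccttcacca
Z00030378-1: ctgatgtatgtttgactagtatagagttca
Z00038074-1: ctactagcagatttccactgtgcccagacc
The member Z00038074-1 matched 54 bases of a RefSeq window around the start of Plet1os in GRCm38.p6. It was the only one of the 210 members with a match of at least 30 bases to any of the 32851 windows. The match lies at chr9:50505002-50505055 on the plus strand, opposite to Plet1os, a long non-coding RNA gene, and upstream of its annotated start. The same bases fall inside the span of Plet1, at chr9:50494525-50505639, a protein-coding gene first known from the placenta. Exon and UTR annotation was not used here, and nothing in the files names the gene this probe was designed for.

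Some members read related sequences and are not independent measurements. There were 7 members in 3 groups that shared at least 15 bases with another member on the same strand, directly or through another of the group. They are shown with the stretch common to the whole group in capitals.
Z00060019-1: catgctcaaGAGACTCAGAGggagcactct
Z00060967-1: cgtgctcagGAGACTCAGAGggagcaccct
Z00072518-1: cgtgctcagGAGACTCAGAGaaagcaccct
Z00070676-1: TCATCTGAGATCTTTCCTGTATCCCCATAG
Z00034075-1: TCATCTGAGATCTTTCCTGTATCCCCATAG
Z00075833-1: TGACTCCGGAGGCCCACTGATTTGTGATGG
Z00073950-1: TGACTCCGGAGGCCCACTGATTTGTGATGG
In all, 49 members shared at least 15 bases with some other probe on the same strand. The members' median GC content was 45.0%, with a range from 25% to 63.3%, and that of all probes was 43.3%.

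Levels below are log2 ratios of sample over reference after background correction and loess, and compare 1 probe between samples, not probes with each other. All 210 members passed the filter on dim probes, which kept 33099 of 42006; since the rule demanded brightness with both drugs, they had to pass. The members' median on day 1 was -1.75 with neither drug, -1.50 with doxycycline alone and -1.38 with both. On the day 3 arrays it was -1.85 with neither drug, -0.50 with doxycycline alone and 0.04 with both. On day 6 it was -1.84, -0.58 and 0.14, beside 0.81 in iPS cells and 0.95 in ES cells. The primary fibroblasts lay between -1.52 and -1.45. The median of all tested probes stayed between -0.02 and 0.01 in every group.

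The difference that chose the members, both drugs minus doxycycline alone, is given as a description. In the authors' deposited log10 values its mean over both days ran from 0.1503 to 0.604, with a median of 0.220, which is 1.66-fold. A mean difference of 2-fold or more was reached by 36 members. The difference was larger on day 6 than on day 3 in 144 members and smaller in 66. On the log2 ratios, which the rule did not use, the median difference was 0.55 on day 3 and 0.72 on day 6, and in all 210 members both arrays with both drugs again lay above both with doxycycline alone on each day. Among all probes this held for 28.9% on day 3 and 25.7% on day 6. These are the same arrays and the same spots, so this is no separate replication. Just inside the size limit were Z00049685-1 at 0.151 and Z00034904-1 at 0.1503, and just outside it Z00027118-1 at 0.149 and Z00075369-1 at 0.149.

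The member with the largest difference was Z00025969-1, which was not well above background in wild MEFs or with neither drug. Its log2 ratios on day 3 were -0.28 and -0.23 with doxycycline alone and 0.63 and 0.59 with both drugs. On day 6 they were -0.21 and -0.17 against 1.11 and 0.96. Both arrays with both drugs thus stood clear of both with doxycycline alone, and still below the ES arrays at 1.31 and 1.23. On day 6 its signal with both drugs was at least 2.99-fold higher than with neither, a bound set against the lowest detectable signal.

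Z00029389-1 stood above the level of pluripotent cells. On day 6 it was at 0.91 and 0.82 with doxycycline alone and at 2.83 and 2.64 with both drugs, while the ES arrays were at 0.76 and 0.72 and the iPS arrays at 0.03 and 0.13. The placed probe Z00038074-1 did so with both drugs only: it was at 0.90 and 0.80 with doxycycline alone, at 2.49 and 2.38 with both, and at 1.86 and 1.93 in ES cells. With neither drug on day 6 its arrays disagreed, at -1.05 and -2.36.

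Z00030378-1 had the widest gap between pluripotent cells and fibroblasts of all members, 2.91 in the deposited log10 values. It was not well above background in wild MEFs, and its ES signal was at least 101-fold higher. With both drugs it was at -4.46 and -4.25 on day 3 and at -3.61 and -3.57 on day 6, above the -5.01 and -5.02 of doxycycline alone on day 6. The ES arrays were at 1.40 and 1.38, so the cultures remained far below them. Z00008160-1 and Z00034851-1 were also still below both ES arrays on day 6, at -3.72 and -3.67 and at -1.45 and -1.42 with both drugs against 0.71 and 0.73 and 1.14 and 1.12 in ES cells. Z00036042-1 was at -0.33 and -0.52 with both drugs and at 2.23 and 2.26 in ES cells.

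Z00076164-1 was highest on day 3. It read -2.25 and -2.86 with doxycycline alone and -1.34 and -1.41 with both drugs, then -3.79 and -3.95 against -2.75 and -2.59 on day 6. Its ES arrays were at -3.90 and -3.99, so with both drugs it exceeded the ES level on both days. Z00064197-1 also had its highest values with both drugs on day 3, at 1.41 and 1.27. Its ES arrays, at -0.23 and -0.24, were at least 1.21-fold above wild MEFs, where it was not well above background. The rest of the 12 largest, Z00034198-1, Z00057851-1 and Z00075557-1, are given with both drugs only. Z00034198-1 was at 0.57 and 0.55 on day 3 and at 1.22 and 1.13 on day 6. Z00057851-1 was at 0.76 and 0.90, then at 1.46 and 1.28. Z00075557-1 was higher on day 3, at 1.40 and 1.35, than on day 6, at 0.69 and 0.67.

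Over all members the mean with both drugs was highest on day 6 in 131, on day 3 in 72 and on day 1 in 7. The rule made demands on days 3 and 6 of these cultures and none on day 1, so these counts follow in part from it. With doxycycline alone the day 6 mean was highest in 114, the day 3 mean in 78 and the day 1 mean in 18. On day 6 with both drugs, 77 members had both arrays above both ES arrays and 121 had both below. Among all tested probes those shares were 48.3% and 37.6%. With doxycycline alone the counts were 56 above and 149 below, beside 47.7% and 38% of all tested probes. All of these arrays entered the rule, which demanded high values in iPS and ES cells. The shares therefore follow in part from the choice of members, and no test was made.

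In the groups that share sequence the rule fixed the direction, and their levels are given side by side. The 3 probes with the shared 11-base stretch were at -0.47 to -1.40 with doxycycline alone on day 3 and at 0.37 to -0.46 with both drugs. The pair Z00070676-1 and Z00034075-1 was below the reference in every group: with both drugs on day 6 they were at -2.89 and -2.87 and at -3.06 and -3.09, beside -2.76 and -2.78 and -3.03 and -3.02 in ES cells. The pair Z00075833-1 and Z00073950-1 was at 1.88 and 1.67 and at 1.65 and 1.51 with both drugs on day 6, above ES arrays that lay between -0.03 and 0.22.

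Probes that share sequence with a member without being members measure the same contrast at other spots. There were 16 pairs of a member and a probe, 15 such probes in all, that shared at least 20 bases on the same strand, and in 14 pairs the probe is outside the deposited brightness table. The probe Z00033919-1, which makes up the other 2 pairs, is in that table, so the rule screened it and did not choose it. At 13 of the 15 probes both arrays with both drugs exceeded both with doxycycline alone on day 3 and on day 6, beside 14% of all probes. Over the 16 pairs, with Z00033919-1 entering 2 times, the median difference at these probes was 0.47 on day 3 and 0.66 on day 6. At their members it was 0.57 and 0.71. The RNA and the arrays are the same, and the members of the pairs were chosen for this difference, so no test was made.

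The closest pair shared 56 bases: Z00055094-1 differed by 0.84 and 1.17 on days 3 and 6, and its member Z00022872-1 by 0.78 and 1.20. Z00030600-1, which shares 39 bases with Z00075557-1, differed by 1.09 and 1.21, beside 1.11 and 1.13. In 2 pairs the other probe did not separate on both days, and they are named because they go against the rest. Z00038318-1 shares 42 bases with Z00076243-1 and differed by 0.01 and 0.09 where the member differed by 0.47 and 0.71. Z00035221-1 shares 36 bases with Z00075197-1 and differed by -0.19 on day 3 and 0.60 on day 6, beside 0.29 and 0.71.

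The first day of treatment did not enter the rule, so it could be tested. The question is whether the members already differed 1 day after both drugs were added. With limma and Benjamini-Hochberg adjustment over all 33099 probes, at an adjusted p under 0.05, 19 of 210 members were higher with both drugs than with doxycycline alone on day 1, and none was lower. Among all probes, 0.275% were called higher and 0.103% lower. The median difference was 0.09 in the members and 0.00 in all probes, and 69 members were higher at an unadjusted p under 0.05. The members' median was 0.135 without replicate 1 of the cultures with both drugs and 0.056 without replicate 2, so its size depends on single arrays. Both arrays with both drugs exceeded both with doxycycline alone in 113 members, beside 18.2% of all probes. Leaving out 1 array lowered the count to 10 without replicate 2 of the cultures with both drugs and to 12 without replicate 1 of those with doxycycline alone. With the local backgrounds as deposited 3 members were called, and with the scanner software's log ratio 11. Over all 33099 probes the calls fell too, from 125 to 26 and to 69. The series matrix values gave 17 higher and 1 lower, with 13 of these calls among the 19, beside 139 of 20183 probes.

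Z00004876-1 was at -1.96 and -1.94 with doxycycline alone on day 1 and at -1.08 and -1.03 with both drugs. The 2 groups do not overlap, and the difference was 0.90 ± 0.11 (SE) in log2 (limma, adjusted p = 8.12e-05). Z00000953-1 rose from -3.77 and -3.79 to -3.01 and -2.93, by 0.81 ± 0.09 (SE; limma, adjusted p = 2.02e-05). Z00058073-1 rose from -1.49 and -1.44 to -0.77 and -0.63, by 0.77 ± 0.06 (SE; limma, adjusted p = 4.41e-08). By size of the difference on days 3 and 6, the first 2 stand at places 174 and 200 of the 210, and the last at 17. With the local backgrounds as deposited Z00004876-1 and Z00000953-1 were no longer called, at 0.87 ± 0.37 and 0.80 ± 0.44 (SE). Z00058073-1 kept its call.

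None of the 12 members with the largest difference on days 3 and 6 was called on day 1. Their day 1 differences in log2 ran from -0.10 at Z00076164-1 to 0.27 at Z00057851-1, the latter with an SE of 0.07 (limma, adjusted p = 0.1497). Z00025969-1 was at -0.79 and -0.71 with doxycycline alone and at -0.57 and -0.43 with both drugs, not well above background on any of these arrays. The largest day 1 difference of all, 1.36 at Z00073950-1, was not called. It rests on 1 array: replicate 1 with doxycycline alone read -3.43 where replicate 2 read -0.63, and the arrays with both drugs read -0.73 and -0.61.

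Tamoxifen without doxycycline was compared with neither drug, both without the inducer of the KOS factors. No member was called on day 1, 3 or 6, or for the mean of the days, by limma. At an unadjusted p under 0.05, 5 were higher and 17 lower on day 1, 4 and 3 on day 3, 18 and 4 on day 6, and 4 and 12 for the mean of the days. All probes gave 0% called higher and 0% called lower in each of these comparisons. In the members the median difference on days 1, 3 and 6 was -0.07, 0.00 and 0.04, beside 0.00, 0.00 and 0.01 in all probes. In each of these 6 groups 27 to 32 of the 210 members were not well above background on either array, so a difference below that level could not be measured for them. These arrays have the same slide positions as those with doxycycline. The count on day 6 rests on 1 array, replicate 1 of Dox-Tmx+ on day 6. Without it members were called in both directions, on day 6 and for the mean of the days, and calls over the whole array rose as well. The members' median difference was then 0.03 on day 6 and -0.01 for the mean of the days. The series matrix values gave 1 member on day 1, 0 on day 3, 10 on day 6 and 5 for the mean of the days. Over all 20183 probes tested there, 49, 6, 628 and 352 were called. Of the members on day 6, 8 were higher and 2 lower.

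The tamoxifen labels of the primary fibroblasts are described without a test, since their untreated arrays entered the rule. In Zscan4ERT2 MEFs the members' median difference was 0.05, with 134 above 0 and 76 below. In wild MEFs, whose Tmx+ protocol names no tamoxifen, it was 0.04, with 146 above 0 and 64 below. In both lines the Tmx- and Tmx+ arrays lay on different slides, and in the Zscan4ERT2 line they also differed in scan day. These cannot be told apart from the tamoxifen label. Apart from Z00008160-1 and Z00076164-1, the 12 members with the largest difference were not well above background on any Tmx- array of either line.

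The tamoxifen effect itself was compared between cultures with and without doxycycline on day 1. It was larger with doxycycline in 9 of 210 members and smaller in none (limma, adjusted p under 0.05), beside 0.0906% and 0.0211% of all probes. The median of this difference was 0.16 in the members and 0.00 in all probes. Part of it came from the cultures without doxycycline, where 166 of 210 members were lower with tamoxifen on day 1, none of them called. Among the called members Z00004876-1 had the largest difference of effects, 1.01 ± 0.16 (SE; limma, adjusted p = 0.00341), and was well above background on 1 of 2 arrays with neither drug. Z00000953-1 followed with 0.95 ± 0.12 (SE; limma, adjusted p = 0.000462), and Z00057834-1 with 0.78 ± 0.08 (SE; limma, adjusted p = 1.2e-05). Z00057834-1 read -1.89 and -1.88 with doxycycline alone, -1.22 and -1.19 with both drugs, -4.41 and -4.32 with tamoxifen alone and -4.32 and -4.22 with neither. With the local backgrounds as deposited, 0 members were called, with 15 at an unadjusted p under 0.05, and with the scanner software's log ratio 3. Over all probes the calls fell too, from 37 to 1 and to 5. Z00004876-1 was not called with the scanner software's log ratio, nor with the series matrix values.

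Doxycycline alone, the inducer of the KOS factors, was compared with neither drug on day 1. The 2 groups lay on different slides, and a slide effect cannot be told apart from that of the drug. With doxycycline alone, 81 of 210 members were higher and 22 lower (limma, adjusted p under 0.05). Of all probes 23.5% were called higher and 22.8% lower, so the members' share of higher calls, 38.6%, was above and their share of lower calls, 10.5%, below that of the array. The median difference was 0.10, beside -0.02 for all probes, with a range from -1.44 to 4.17. The median was 0.06 without replicate 1 of doxycycline alone, 0.43 with the scanner software's log ratio and 0.39 with the series matrix values. The lower calls were 12 without replicate 2 of neither drug, 14 without replicate 2 of doxycycline alone, and 7 with the local backgrounds as deposited. The arrays with doxycycline alone on day 1 enter this comparison and the day 1 tamoxifen comparison with opposite sign.

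Z00075622-1 read -1.19 and -1.20 with neither drug and 2.92 and 3.01 with doxycycline alone. This rise of 4.17 ± 0.07 in log2 (SE; limma, adjusted p = 1.57e-23) is 17.9-fold. Z00034904-1, the last member inside the size limit, rose from -0.11 and -0.07 to 3.39 and 3.47, by 3.52 ± 0.10 (SE; limma, adjusted p = 1.58e-19). Z00007374-1 was not well above background with neither drug and was at least 8.64-fold higher with doxycycline alone (limma, adjusted p = 3.64e-19), at 1.30 and 1.33. All 3 then stood above the iPS and ES arrays of the same probe on day 1.

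Z00025437-1 fell from 0.47 and 0.27 to -1.04 and -0.92, a difference of -1.35 ± 0.09 (SE; limma, adjusted p = 3.29e-12). Z00034260-1 fell from -1.03 and -1.01 to -2.17 and -2.20, a difference of -1.17 ± 0.06 (SE; limma, adjusted p = 1.94e-14). With both drugs on day 6 they were at -0.25 and -0.43 and at -0.12 and -0.16. The third called lower with a large change, Z00073950-1, had a difference of -1.44 ± 0.42 (SE; limma, adjusted p = 0.00627) that rests on the deviating array named above. Without that array it was -0.04, and in the deposited brightness values it was 0.59, of opposite sign.

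Of the 12 members with the largest tamoxifen difference, 3 were called higher and 1 lower with doxycycline alone on day 1. On days 3 and 6 doxycycline alone, described without a test because its arrays chose the members, was above neither drug in 207 and 203 members. The medians were 1.25 and 1.33, beside -0.003 and 0.001 for all probes. With both drugs against neither, the medians were 0.16, 1.96 and 2.17 on days 1, 3 and 6, beside -0.021, 0.003 and 0.003 for all probes.

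Time without either drug was tested as the background of the cultures. From day 1 to day 6, 98 of 210 members fell and 24 rose (limma, adjusted p under 0.05), where 27.6% of all probes fell and 27.6% rose. The median change was -0.18, beside -0.02 for all probes. Z00025437-1 fell most, from 0.47 and 0.27 to -1.45 and -1.36, a change of -1.78 ± 0.09 (SE; limma, adjusted p = 1.67e-14). Z00030573-1 changed by -1.63 ± 0.07 (SE; limma, adjusted p = 3.08e-16) and Z00075083-1 by -1.47 ± 0.11 (SE; limma, adjusted p = 1.65e-11). Z00075622-1 rose with no drug too, from -1.19 and -1.20 to 1.08 and 1.08, by 2.28 ± 0.07 (SE; limma, adjusted p = 4.41e-18). Z00023343-1 rose by 1.98 ± 0.09 (SE; limma, adjusted p = 2.68e-15) and Z00037090-1 by 1.43 ± 0.10 (SE; limma, adjusted p = 2.25e-11), the latter to 0.16 and 0.38 on day 6. Slide and scan day differed between these days and cannot be told apart from time. With the local backgrounds as deposited the calls were 21 lower and 25 higher, and the median was 0.12, of opposite sign.

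The iPS cells bear the same transgene names as the cultures, and their comparison with ES cells did not enter the rule, which averaged them. Of 210 members 64 were lower in iPS cells and 9 higher (limma, adjusted p under 0.05). Among all probes 5.18% were lower and 2.93% higher. The median difference was -0.11 in the members and 0.00 in all probes, with 154 members below 0 and 56 above. Leaving out an array gave 53 and 48 calls without iPS replicates 1 and 2, and 59 and 47 without ES replicates 1 and 2; only the 48 and the 47 are more than 1.5 times below the 73 of all arrays. With the local backgrounds as deposited 9 were called, and with the scanner software's log ratio 38.

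Z00007374-1 was at -0.70 and -0.66 in iPS cells and at 0.83 and 0.74 in ES cells, a difference of -1.47 ± 0.09 (SE; limma, adjusted p = 5.36e-11). With both drugs on day 6 it had reached 3.58 and 3.51. Z00024159-1 was lower by 1.39 ± 0.06 in log2 (SE; limma, adjusted p = 7.34e-14), at -3.14 and -3.22 against -1.84 and -1.74. Z00034770-1 differed by -0.98 ± 0.08 (SE; limma, adjusted p = 2.79e-09), at 0.14 and 0.05 against 1.05 and 1.09.

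Z00025969-1, the member with the largest tamoxifen difference, was the one raised most in iPS cells, at 2.41 and 2.17 against 1.31 and 1.23, by 1.02 ± 0.11 (SE; limma, adjusted p = 6.7e-07). Z00034904-1 was higher by 0.63 ± 0.10 (SE; limma, adjusted p = 9.65e-05) and Z00049813-1 by 0.41 ± 0.07 (SE; limma, adjusted p = 0.000497). Among the 12 with the largest tamoxifen difference, 6 were called lower in iPS cells and 1 higher. The iPS cells are 1 clone, so a clone and the cell type cannot be told apart.

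On the log2 ratios 207 of 210 members were higher in ES cells than in untreated wild MEFs, and 167 were at least 2-fold higher. The median was 2.27, beside -0.04 for all probes. The rule demanded a gap of this direction in the deposited values, so no test was made. The ES and wild MEF arrays differed in slide and scan day, which cannot be told apart from the cell type. The remaining 3 members were Z00075719-1, Z00074008-1 and Z00074498-1, named because they go against the rule's demand on this scale. They read -0.73, -2.05 and -1.46 in ES cells and -0.67, -1.97 and -1.25 in wild MEFs, as means of 2 arrays.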

How the data were processed

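The members and every list and comparison were chosen with earlier results of these data known. Each array's deposited scanner file gives spot intensity and local background intensity in both channels, not normalized; per the file headers the software was Agilent Feature Extraction 9.5.1.1. The authors' series matrix was read as log10 sample brightness: its array medians lie between 2.37 and 2.46 and it correlated at 0.977 to 0.994 with log10 of the background-subtracted sample channel. No source used here gives its scaling or centring. The deposited Feature Extraction log10 ratio, sign turned, was an alternative.

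Local backgrounds marked as outliers were replaced by the array median, because normexp had failed on some arrays without this in earlier work on these data. Then normexp with offset 50 and loess were applied (limma 3.58.1, R 4.3.3). Control and non-uniform spots were left out and spots of a probe averaged. Probes well above background on both arrays of at least 1 group were kept. One limma model with a mean per group over 36 arrays gave 9 contrasts. On simulated data for tamoxifen beside doxycycline on day 1, over 33097 probes, 87% of changes of 0.5 and 96% of changes of 1 in log2 were recovered. Of 194 calls there, 11 were false. The simulated noise was independent between probes and arrays, so a deviation of a whole array was not covered.

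Named are the 12 members with the largest mean difference, per tested comparison the 3 called with the largest change each way, and 2 probes on each side of the size limit; sequence groups and exceptions were named after their values were seen. Bounds use channel signals after loess and Aquantile; without dye swaps they are open to dye bias. Gene lists could not be applied, as no gene names were paired with probes. Alternatives were the background correction, the scanner log ratio, the series matrix, no filter, fewer arrays in the fit, a replicate block, slide as a block, other size limits, and each array left out.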

Additional observations from a re-analysis of the deposited data

Results flagged for a closer look

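The tamoxifen effect of day 1 differed between cultures with and without doxycycline, by a test of the difference itself in limma, in 9 of 210 members. It was larger with doxycycline in all 9. Among all probes 0.0906% were called larger and 0.0211% smaller. The 3 called members with the largest difference in log2 were Z00004876-1 at 1.01, Z00000953-1 at 0.95 and Z00057834-1 at 0.78. With the local backgrounds as deposited none of these 3 was called. Z00004876-1 also lost its call with the scanner software's log ratio and with the series matrix values (limma, adjusted p = 0.549 and 0.252). Tamoxifen arrays had the same slide positions in both sets of cultures, and replicate 2 of the tamoxifen cultures without doxycycline has a protocol that names no tamoxifen; leaving that array out gave 7 calls.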

How the results depend on the processing

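The members number 360 with a size limit of 0.10, 126 with 0.20, and 150, of which 144 are among the 210, when the rule is applied to the log2 ratios. With the local backgrounds as deposited, the members called fell to 3 for tamoxifen beside doxycycline on day 1, 0 for the difference of tamoxifen effects, 9 for iPS against ES and 46 for time; the cause was not tested. The scanner software's log ratio gave 11, 3 and 38 for the first 3 of these. The series matrix gave 1, 10 and 5 members for tamoxifen without doxycycline on day 1, day 6 and over the mean of days, where limma on the log2 ratios called 0. Its calls over all 20183 probes tested were 49, 628 and 352. Other alternatives apart from leaving out arrays kept each count within 1.5 times. Leaving out 1 array at a time gave 10 to 14 calls for tamoxifen beside doxycycline on day 1; 0 to 1, 0 to 0, 0 to 23 and 0 to 20 for tamoxifen without it on days 1, 3, 6 and their mean; 91 to 102 for doxycycline alone; 6 to 12 for the difference of effects; 47 to 59 for iPS against ES; and 83 to 128 for time. The highest counts for day 6 and for the mean arose without replicate 1 of Dox-Tmx+ on day 6, where calls over the whole array rose as well. Of 276 values of named members under alternatives, 261 kept sign and call, 14 kept the sign and lost the call, and Z00073950-1 with doxycycline alone on day 1 turned to 0.59 in the series matrix.

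Replicate numbers are only numbers here; the deviations of same-numbered arrays correlated between -0.294 and 0.442. With the replicate block the calls were 20, 0, 0, 0, 0, 103, 9, 72 and 125 in the order of the comparisons above. A median tamoxifen difference within 0.1 of 0 in log2 is at the scale of the spread between arrays.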
